A study of Mus musculus with 300 samples.

Results

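Adult mouse spermatogonia in the brightest quartile of ID4-EGFP fluorescence, Q1, were compared with those in the third quartile, Q3, a bin that is dimmer but not the dimmest. Cells were taken by their quartile label alone: 79 were labelled Q1 and 71 were labelled Q3, together 150 of 300 cells. The 78 cells of Q2 and 72 of Q4 entered the shared estimate of spread and the profiles over brightness. All groups came from untreated adult mice that carried the ID4-EGFP reporter, whose fluorescence stands in for the transcriptional regulator ID4. Strain, sex, exact age and the construction of the reporter are not given in the sources used here. Per the labels' protocols, tubules of at least 2 mice were pooled and digested with enzymes, and germ cells were enriched over Percoll and sorted as bright for CD9 and positive for EGFP. Every group had therefore passed one gate. Single cells were captured on Fluidigm C1 microfluidic chips, where EGFP was measured in images and where dead cells, debris and multiplets were left out. Titles carry a number from 1 to 4 that was read as the preparation, which gave 17, 21, 19 and 22 Q1 cells and 15, 20, 17 and 19 Q3 cells. The preparation was the replicate (n = 4), and Q1 was paired with Q3 within it.

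Undifferentiated spermatogonia sustain sperm production, and a minority of them act as stem cells. GDNF from neighbouring somatic cells binds the co-receptor GFRA1 and its signalling partner RET, and with FGF it induces self-renewal genes such as Etv5 while DUSP and Sprouty proteins restrain the same ERK cascade. Cells that leave the stem state take up progenitor genes such as Neurog3, Sox3, Rarg and Upp1, and retinoic acid then brings on Stra8 and Kit. ID4 itself is known as a marker of the stem cell end of this range.

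The labelled cell type was checked first. All 79 Q1 and all 71 Q3 cells matched the list of 10 spermatogonial markers, among them the germ cell RNA helicase Ddx4, which was at 1 FPKM or more in 100% of both groups. Detection varied over that list, with Lin28a in 60.8% of Q1 and 80.3% of Q3 cells and Dnd1 in 74.7% and 56.3%. Another type was assigned to a cell that had 5 FPKM or more for 50% or more of that type's measured markers and for no fewer than 3. That applied to 1 Q1 cell and 2 Q3 cells, all through the macrophage or leukocyte list. On that list 10 of 11 markers were measured, its summed level ranged from 2.14 to 3.05 over the 4 Q1 means and from 1.14 to 3.88 over the 4 Q3 means, and Ptprc was detected in 1.27% of Q1 and 2.82% of Q3 cells. Other members were detected more often, Fcer1g in 30.4% of Q1 and 14.1% of Q3 cells and Cd68 in 15.2% and 15.5%. Of the 150 cells 0 matched Sertoli, Leydig, myoid, endothelial, erythroid, spermatid or pachytene lists. If these cells were independent, a count of 0 would leave room for a share of 2%. They come from 4 preparations, so the room may be larger. Amh, Cyp17a1 and Hba-a1 were listed at 0 in every one of these cells. Other members were detected, such as Star in 12.7% of Q1 and 16.9% of Q3 cells and Flt1 in 25.3% and 26.8%. The spermatid gene Tnp1 was detected in 63.3% and 46.5%, and the pachytene genes Hspa2 and Tbpl1 in 69.6% and 92.4% of Q1 and 49.3% and 91.5% of Q3 cells. Genes at 1 FPKM or more per cell averaged 5687 ± 697 in Q1 and 5426 ± 851 in Q3 (SD, n = 4), higher in Q1 in 3 of 4 preparations (difference 260, exact two-sided sign-flip permutation p = 0.25). Relative depth, estimated from the steps between low values, was 1.00 ± 0.063 in Q1 and 1.06 ± 0.062 in Q3 (SD, n = 4; exact sign-flip permutation p = 0.125). With 4 pairs this test cannot go below 0.125.

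Q1 cells carried more transcript than Q3 cells of the GDNF co-receptor Gfra1, of the transcription factors Etv5, Lhx1, Eomes, Foxc2, T and Hhex and of the inhibitors of ERK signalling Dusp6, Spry2 and Spry4, and less of Ndrg4, Upp1 and Sohlh1. Of 10411 tested genes 102 passed an adjusted p of 0.05 in limma (0.98%), of which 90 were higher (0.864%) and 12 lower (0.115%) in Q1. A level here is the mean of log2(FPKM + 1) over the cells of a preparation, where FPKM is a fragment number scaled by transcript length and library size, and a difference is the Q1 level minus the Q3 level. The median difference was 1.61 among the higher and -1.57 among the lower genes, against 0.10 over all tested genes, of which 60.7% had a difference above 0. One sign was seen in all 4 preparations for 88 of the 90 higher genes, with Slc25a20 and Aldh1a3 the exceptions, and for all 12 lower ones. All 4 Q1 means lay outside the range of the 4 Q3 means for 66 of the higher and 7 of the lower genes, where 3.3% and 1.09% of all tested genes did so in those directions. The genes were called from these same means, which by itself favours one sign and no overlap. No share with one sign over all tested genes is given, so these counts are descriptions and no added support.

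The split between directions moved with centring. After each mean was centred on its median gene, 56 genes were higher and 19 lower, so 74.7% of the calls were higher against 88.2% without centring. Centring took the median difference over all genes from 0.10 to -0.05. With genes per cell as a covariate 50 were higher and 7 lower, and without the cells that matched another type 77 and 10. Without the preparation block 30 and 3 passed, and from the log2 of mean FPKM, which a few cells with high values can set, 6 and 1. Without preparations 1, 2, 3 and 4 the counts were 78, 28, 40 and 31 higher and 7, 3, 8 and 3 lower.

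**Figure D1:**
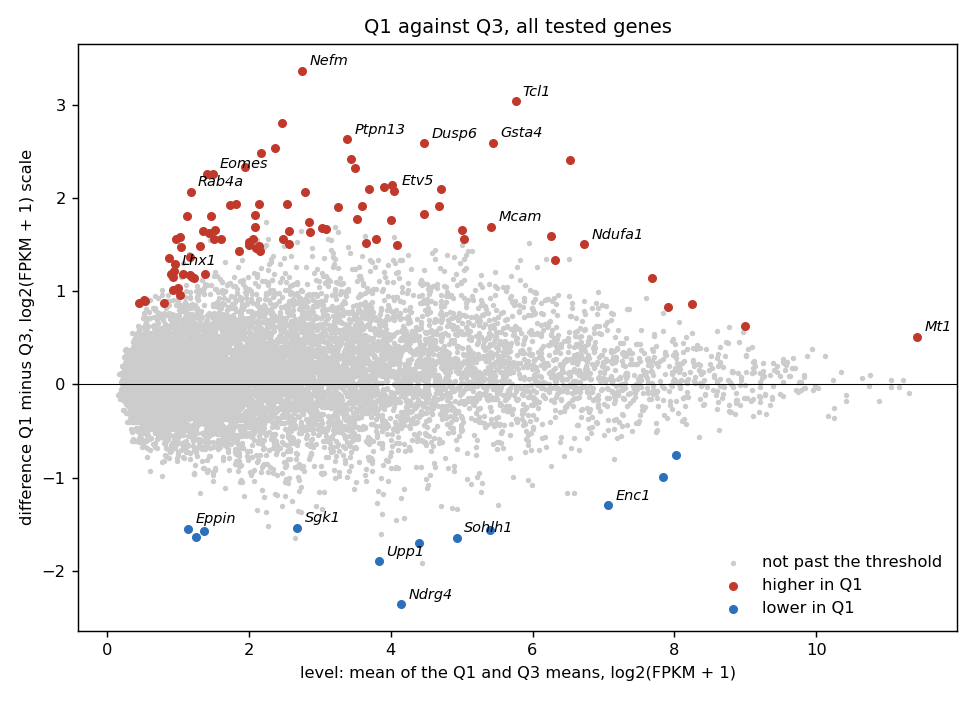
Each point is 1 of 10411 tested genes, with its level (mean of the Q1 and Q3 means, log2(FPKM + 1)) on the x axis and its difference Q1 minus Q3 on the same scale on the y axis. Red points are the 90 genes past the threshold and higher in Q1 and blue points the 12 lower ones. Nefm lies highest at 3.37 and Ndrg4 lowest at -2.36, and the called genes span levels from below 1 to that of Mt1.

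Among the genes tied to the stem cell state, 10 of 16 tested members were higher in Q1 and 0 lower, and all 16 differences were above 0. Their median difference was 1.51, against 0.10 over all tested genes, of which 0.864% were higher and 60.7% had a difference above 0. The list was written with earlier results of these data known, so it is no independent evidence of its direction. Pax7, Shisa6, Id1 and Pdgfra belong to it but were below the expression filter.

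Gfra1, the GDNF co-receptor, had levels of 4.13, 5.88, 4.53 and 4.10 in Q1 and 1.77, 2.90, 2.91 and 1.78 in Q3 in preparations 1 to 4. Every Q1 mean lay above every Q3 mean, and the difference was 2.32 (SE 0.40, limma adjusted p = 0.00238). Ret, the receptor tyrosine kinase that signals with it, stood at 2.74, 3.79, 2.61 and 3.39 in Q1 and at 1.61, 2.14, 1.94 and 2.25 in Q3. Its groups did not overlap either, but its difference of 1.15 did not pass (SE 0.36, limma adjusted p = 0.138). Gfra1 was at 1 FPKM or more in 81.9% of Q1 and 49.4% of Q3 cells and Ret in 79.5% and 55.6% (means over 4 preparations).

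Etv5, an ETS factor without which the stem cell pool is lost, had levels of 4.72, 5.71, 5.22 and 4.72 in Q1 and 2.55, 3.25, 3.66 and 2.58 in Q3. The groups did not overlap, and the difference was 2.08 (SE 0.37, limma adjusted p = 0.00348). Lhx1, a LIM homeobox gene induced by GDNF, stood at 1.19, 2.27, 1.51 and 1.25 in Q1 and at 0.09, 0.23, 0.66 and 0.36 in Q3, a low level in both. Its difference was 1.22 (SE 0.23, limma adjusted p = 0.00539). Bcl6b and Etv4, which also respond to GDNF or FGF, differed by 0.42 and 0.38 and did not pass (limma adjusted p = 0.674 and 0.577). Without preparation 2 the adjusted p was 0.0538 for Gfra1, 0.0538 for Etv5 and 0.112 for Lhx1 (limma).

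Eomes, a T-box factor found in a subset of the GFRA1-positive cells, had levels of 1.62, 2.62, 3.34 and 2.90 in Q1 and only 0.47, 0.04, 0.54 and 0.40 in Q3. It was detected in 57.4% of Q1 cells and 8.91% of Q3 cells, and the difference was 2.26 (SE 0.33, limma adjusted p = 0.000477). Hhex, a homeobox repressor, stood at 3.88, 5.37, 4.62 and 4.74 in Q1 and at 2.79, 2.18, 1.77 and 2.20 in Q3, again with no overlap. Its difference was 2.42 (SE 0.41, limma adjusted p = 0.00218). Foxc2, a forkhead gene of a stem cell subset, overlapped between groups, with 3.16, 3.76, 3.18 and 1.40 in Q1 and 1.18, 1.78, 1.86 and 0.95 in Q3. Its difference of 1.43 (SE 0.35, limma adjusted p = 0.0456) passed narrowly and was lost in 13 of 16 alternative settings, among them without the preparation block (limma adjusted p = 0.235) and without preparations 1, 2 and 3 (0.236, 0.256 and 0.124). The brachyury gene T, another T-box factor, was detected in 35.6% of Q1 and 4.45% of Q3 cells (difference 1.58, SE 0.32, limma adjusted p = 0.0092), and without preparations 2, 3 and 4 it had 0.12, 0.0731 and 0.0618. Nanos2 (0.40), Zbtb16 (0.34) and Id3 (0.37), a translational repressor, a zinc finger factor and a BMP target of undifferentiated cells, did not pass (limma adjusted p = 0.576, 0.754 and 0.802).

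Tcl1, which encodes a protein that binds AKT and raises its activity, had the highest level of the 16 tested stem cell genes in Q1, while in Q3 Mcam and Zbtb16 lay above it. It had levels of 6.70, 7.94, 7.58 and 6.91 in Q1 and 4.46, 4.54, 4.05 and 3.92 in Q3. The lowest Q1 mean lay above the highest Q3 mean, and the difference was 3.04 (SE 0.43, limma adjusted p = 0.00034). The median cell held 230 FPKM of Tcl1 in Q1 and 48.4 FPKM in Q3. Tcl1 was the 1 of 21 tested PI3K, AKT and FOXO1 genes that passed, where 0.98% of all tested genes did. The median difference of that list was -0.04. Its kinases went apart without passing, Akt2 at 0.72 and Akt1 at -1.04 (limma adjusted p = 0.401 and 0.133).

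Of 13 tested surface proteins used to sort spermatogonia, 3 were higher (0.864% of all tested genes) and 0 lower, with a median difference of 0.77. The higher ones, Mcam, Tspan8 and Gfra1, are all among the 10 already counted in the stem cell list, which also holds Ret and Cd82, so the surface list adds no separate call. The adhesion molecule Mcam had levels of 5.64, 6.93, 6.11 and 6.37 in Q1 and 4.42, 5.07, 4.50 and 4.31 in Q3, which did not overlap (difference 1.69, SE 0.34, limma adjusted p = 0.00916). The tetraspanin Tspan8 stood at 2.74, 4.78, 5.06 and 4.28 in Q1 and at 1.82, 3.43, 1.60 and 2.38 in Q3, and preparation 1 of Q1 fell below preparation 2 of Q3 (difference 1.91, SE 0.40, limma adjusted p = 0.0142). Cd9, part of the sort gate, differed by 0.58 and did not pass (limma adjusted p = 0.454). Mcam lost its call without preparations 2 and 4 (limma adjusted p = 0.12 and 0.119), and Tspan8 without preparations 2, 3 and 4 (0.0538, 0.178 and 0.103). Without the preparation block their adjusted p was 0.204 and 0.344 (limma).

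**Figure D2:**
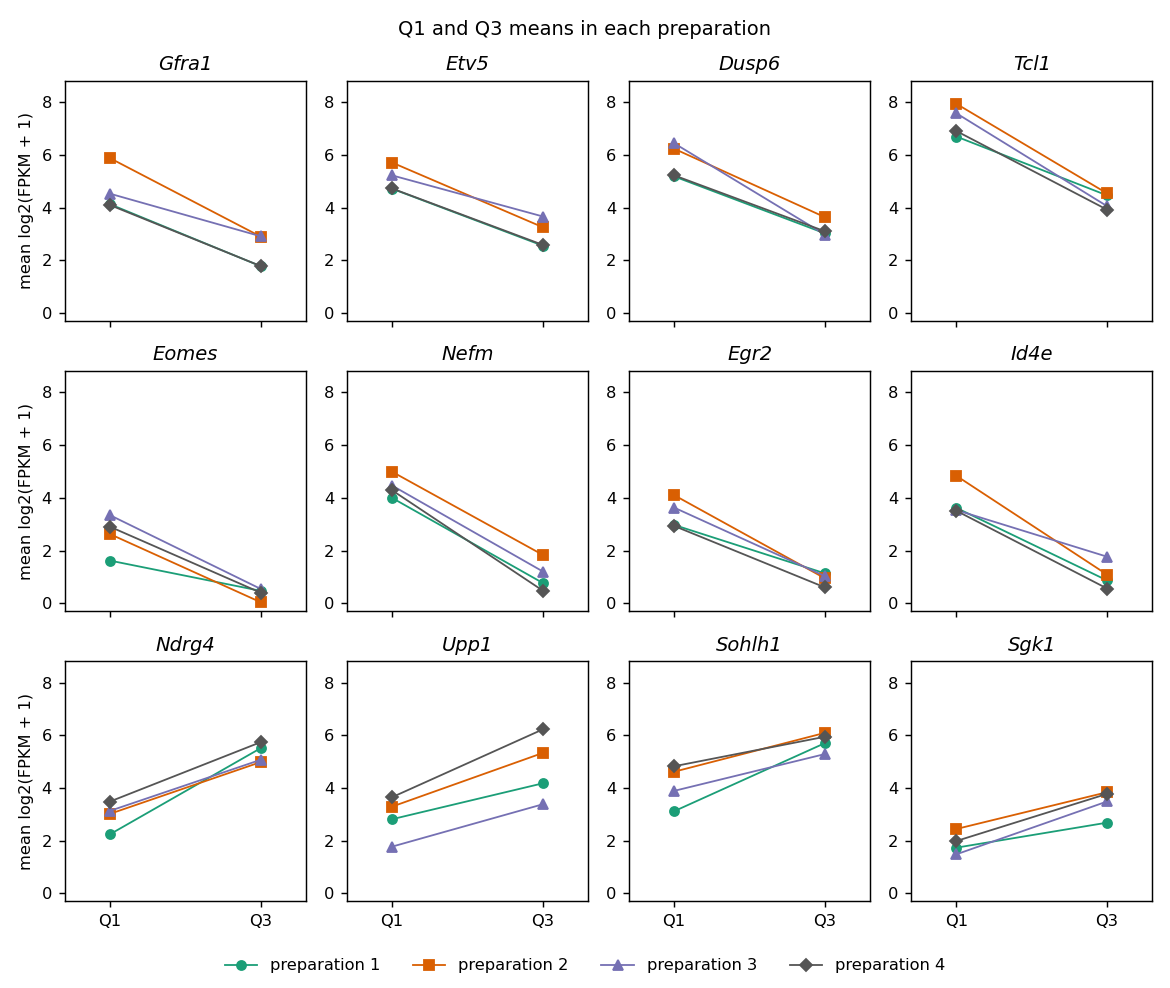
Levels (mean log2(FPKM + 1) over the cells of a preparation, y axis) of 12 genes in Q1 and Q3 (x axis), with 1 line for each of the 4 preparations. All lines of the upper 8 genes fall from Q1 to Q3 and all lines of the lower 4 rise. The Upp1 groups overlap, from 1.78 to 3.65 in Q1 and from 3.39 to 6.23 in Q3, although each preparation moves the same way.

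Feedback genes and targets of receptor signalling were higher in Q1 in 6 of 19 tested cases and lower in 0, with 18 of 19 differences above 0 and a median of 0.42. Over all tested genes 0.864% were higher and 60.7% had a difference above 0. This list and the others were, like the stem cell list, written with earlier results of these data known. Etv5 and Lhx1 are shared with the stem cell list. Dusp6, the phosphatase that inactivates ERK, had levels of 5.18, 6.23, 6.44 and 5.22 in Q1 and 3.02, 3.63, 2.97 and 3.10 in Q3. The difference was 2.59 (SE 0.42, limma adjusted p = 0.00136), and Dusp6 was detected in 98.9% of Q1 and 62.4% of Q3 cells. The Sprouty genes Spry4 and Spry2, inhibitors upstream in the same cascade, moved with it. Spry4 stood at 1.36, 4.22, 3.41 and 3.02 in Q1 and at 0.24, 1.83, 1.48 and 1.18 in Q3 (difference 1.82, SE 0.33, limma adjusted p = 0.00385). Preparation 1 was the lowest for Spry4 in both groups, so the groups overlap although every pair goes one way. Spry2 had levels of 2.15, 3.85, 3.90 and 3.38 in Q1 and 1.25, 1.71, 2.19 and 2.09 in Q3 (difference 1.51, SE 0.33, limma adjusted p = 0.0207).

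Egr2, a zinc finger factor of the growth factor response, had levels of 2.97, 4.10, 3.63 and 2.93 in Q1 and 1.13, 0.94, 1.02 and 0.60 in Q3. No Q1 mean was below 2.93 and no Q3 mean above 1.13, and the difference was 2.48 (SE 0.34, limma adjusted p = 0.000205). The cyclin gene Ccnd2 (1.18, limma adjusted p = 0.0922) and the growth regulator Mycn (-0.93, 0.24) did not pass, the latter lower in Q1 in every preparation. Spry4 lost its call without preparation 2 (limma adjusted p = 0.063) and without the preparation block (0.22). Spry2 lost it without preparations 2, 3 and 4 (limma adjusted p = 0.215, 0.0995 and 0.119) and without the block (0.205). Ccnd2 passed without preparation 1 (limma adjusted p = 0.0476).

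Several of the largest differences belonged to genes outside these lists. Nefm, the medium neurofilament subunit, had the largest of all, with levels of 4.0, 4.99, 4.46 and 4.28 in Q1 and 0.77, 1.83, 1.20 and 0.47 in Q3 (difference 3.37, SE 0.40, limma adjusted p = 4.4e-05). It was detected in 87.2% of Q1 and 26.5% of Q3 cells. Ptpn13, a large protein tyrosine phosphatase, stood at 4.18, 4.87, 4.82 and 4.94 in Q1 and at 1.73, 3.12, 1.93 and 1.51 in Q3 (difference 2.63, SE 0.40, limma adjusted p = 0.000627). Nid1, which encodes the basement membrane protein nidogen, stood at 2.73, 4.16, 4.34 and 3.31 in Q1 and at 0.78, 0.79, 0.88 and 1.96 in Q3, without overlap (difference 2.53, SE 0.39, limma adjusted p = 0.000627).

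Tagln2, an actin-binding transgelin, had levels of 7.16, 8.32, 7.53 and 7.92 in Q1 and 3.16, 5.80, 6.38 and 5.94 in Q3, with the low preparation 1 of Q3 apart from the rest (difference 2.41, SE 0.34, limma adjusted p = 0.00034). Gsta4, a glutathione transferase that clears lipid peroxidation products, was even across Q1 at 6.92, 6.25, 6.97 and 6.83 but spread in Q3 at 2.86, 3.88, 4.55 and 5.28 (difference 2.60, SE 0.46, limma adjusted p = 0.00348). The endosomal GTPase gene Rab4a was near 0 in Q3, at 0.00, 0.22, 0.00 and 0.36, and reached 1.30, 2.63, 2.50 and 2.42 in Q1 (difference 2.06, SE 0.26, limma adjusted p = 8.2e-05). A row named Id4e, whose identity is not given in the sources used here, differed by 2.81 (SE 0.33, limma adjusted p = 4.4e-05). If it holds transcripts of the locus that drives the reporter, its difference follows from how the quartiles were made. Without the preparation block Gsta4 and Tagln2 had adjusted p of 0.0521 and 0.0645 (limma).

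The starts of a stem cell gene, a feedback gene and a gene of the opposite direction are shown here as examples of the sequence upstream of called genes. Each run is the 250 bases before the RefSeq start on GRCm38.p6, 5′ to 3′ on the strand of the gene, and capitals mark CACGTG, a motif bound by many basic helix-loop-helix factors. The windows are chr12:105222738-105222987 (minus strand) for Tcl1, chr10:99262981-99263230 (plus strand) for Dusp6 and chr2:25847249-25847498 (minus strand) for Sohlh1.
Tcl1: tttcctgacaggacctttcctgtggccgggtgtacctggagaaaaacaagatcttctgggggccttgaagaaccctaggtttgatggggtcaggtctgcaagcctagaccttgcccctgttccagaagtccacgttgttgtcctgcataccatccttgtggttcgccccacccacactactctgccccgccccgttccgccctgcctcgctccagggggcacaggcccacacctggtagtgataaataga
Dusp6: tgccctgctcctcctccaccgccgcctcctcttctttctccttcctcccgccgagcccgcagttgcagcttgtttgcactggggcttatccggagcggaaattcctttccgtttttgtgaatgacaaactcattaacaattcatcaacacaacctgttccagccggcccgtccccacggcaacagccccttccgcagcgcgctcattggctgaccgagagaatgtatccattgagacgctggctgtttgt
Sohlh1: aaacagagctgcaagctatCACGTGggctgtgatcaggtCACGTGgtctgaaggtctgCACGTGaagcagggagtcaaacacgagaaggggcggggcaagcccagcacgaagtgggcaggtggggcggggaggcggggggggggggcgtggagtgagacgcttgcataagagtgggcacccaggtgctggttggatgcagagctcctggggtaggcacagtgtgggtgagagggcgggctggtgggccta
Sohlh1 carried CACGTG 3 times, at 231, 211 and 192 bases before the start, and Tcl1 and Dusp6 carried none. Promoters in the RefSeq table matched 8308 of the 10411 tested genes, 68 of the 90 higher and 11 of the 12 lower genes. CACGTG, which reads the same on both strands, stood in 10.8% of all these windows, in 8.82% (6) of the higher and in 27.3% (3) of the lower genes. The ETS core CCGGAAG, searched on both strands, stood in 17.9%, 10.3% and 18.2%, and the GC box GGGCGG in 66.8%, 64.7% and 72.7%. These are matches of letters in a window and were not tested.

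Fewer genes were lower in Q1. Ndrg4, a member of the N-myc downstream-regulated family, had the largest fall, with levels of 2.25, 3.02, 3.13 and 3.49 in Q1 and 5.52, 4.99, 5.07 and 5.74 in Q3 (difference -2.36, SE 0.35, limma adjusted p = 0.000614). The groups were well apart, and Ndrg4 was the only lower gene that passed in every one of 16 alternative settings. Snx33, a sorting nexin of endocytosis, stood at 0.26, 0.36, 0.61 and 0.48 in Q1 and at 1.44, 1.90, 2.12 and 2.82 in Q3 (difference -1.64, SE 0.29, limma adjusted p = 0.00348). It was detected in 8.70% of Q1 and 41.5% of Q3 cells. Eppin, a protease inhibitor gene, had levels of 0.21, 0.54, 0.28 and 0.44 in Q1 and 2.74, 1.60, 1.67 and 1.66 in Q3 (difference -1.55, SE 0.28, limma adjusted p = 0.00369).

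Sgk1, a kinase regulated by serum and glucocorticoids, stood at 1.74, 2.44, 1.48 and 1.99 in Q1 and at 2.69, 3.84, 3.49 and 3.78 in Q3 (difference -1.54, SE 0.35, limma adjusted p = 0.0238). Enc1, an actin-binding kelch protein gene, overlapped between groups, at 5.29, 6.84, 6.61 and 6.94 in Q1 and 6.55, 8.40, 7.95 and 7.96 in Q3 (difference -1.30, SE 0.29, limma adjusted p = 0.0238). Rbck1, of the linear ubiquitin ligase complex, differed by -1.57 (SE 0.33, limma adjusted p = 0.0121) and Gng13, a G protein gamma subunit, by -1.57 (SE 0.37, limma adjusted p = 0.0363). Nhp2, a small nucleolar ribonucleoprotein gene, and Dctpp1, a dCTP pyrophosphatase gene, were the other members, at -1.0 and -0.76 (limma adjusted p = 0.0326 and 0.0446). Both were among the abundant genes, and 97.1% and 97.3% of Q1 cells detected them. They lost the call in 11 and 12 of 16 alternatives, without the preparation block (limma adjusted p = 0.28 and 0.302) and with any 1 preparation left out (0.0772 to 0.135 and 0.0731 to 0.256). Without the preparation block Sgk1, Enc1, Rbck1 and Gng13 had adjusted p of 0.335, 0.605, 0.26 and 0.323 (limma). Without preparation 2 they had 0.114, 0.156, 0.182 and 0.0635, and without preparation 4 they had 0.182, 0.0761, 0.135 and 0.248 (limma). Snx33 had 0.0838 without preparation 4, Sgk1 and Enc1 had 0.142 and 0.0859 without preparation 3, and Enc1 and Gng13 had 0.0692 and 0.199 without preparation 1 (limma).

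Genes of undifferentiated and progenitor spermatogonia were lower in Q1 in 3 of 17 tested cases (0.115% of all tested genes) and higher in 0. Their median difference was -0.57 against 0.10 over all genes. Upp1, uridine phosphorylase, had levels of 2.82, 3.30, 1.78 and 3.65 in Q1 and 4.18, 5.33, 3.39 and 6.23 in Q3 (difference -1.90, SE 0.41, limma adjusted p = 0.0166). The spread between preparations was wide and shared by both groups, so the groups overlap while each pair goes one way. Sohlh1, a basic helix-loop-helix factor of early differentiation, stood at 3.12, 4.62, 3.89 and 4.83 in Q1 and at 5.71, 6.09, 5.29 and 5.95 in Q3 (difference -1.65, SE 0.35, limma adjusted p = 0.0144). Rhox10, an X-linked homeobox gene of the germ line, stood at 2.62, 3.88, 2.54 and 5.13 in Q1 and at 4.64, 5.24, 5.35 and 5.77 in Q3 (difference -1.71, SE 0.39, limma adjusted p = 0.0277). Without the preparation block the adjusted p of Upp1, Sohlh1 and Rhox10 was 0.295, 0.143 and 0.3 (limma). Upp1 had 0.154 and 0.172 without preparations 2 and 4, Sohlh1 0.0503 to 0.108 with any 1 preparation left out, and Rhox10 0.113, 0.12 and 0.226 without preparations 1, 2 and 3 (limma).

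Other progenitor genes had lower values in Q1 without passing. Nanos3, an RNA-binding regulator of germ cells, stood at 3.50, 2.26, 4.01 and 4.14 in Q1 and at 5.58, 4.94, 4.47 and 6.60 in Q3, and its difference of -1.92 had limma adjusted p = 0.0697. It passed without preparation 3 (limma adjusted p = 0.0327). The retinoic acid receptor Rarg, which marks cells competent to differentiate, stood at 1.34, 0.61, 0.46 and 0.82 in Q1 and at 2.02, 1.60, 1.40 and 1.69 in Q3. Its groups did not overlap, but its difference of -0.87 had limma adjusted p = 0.133. Neurog3 (-0.59, limma adjusted p = 0.133) and Sox3 (-0.42, 0.598), transcription factors of progenitors, did not pass.

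Markers of differentiating spermatogonia were split. Of 13 tested members 1 was lower (0.115% of all tested genes), and the median difference was -0.13. The lower gene was Sohlh1, which also counts under the progenitor list. Stra8, induced by retinoic acid, stood at 2.93, 3.53, 2.36 and 4.97 in Q1 and at 4.10, 3.93, 4.55 and 5.35 in Q3 (difference -1.04, SE 0.44, limma adjusted p = 0.318). Kit, the receptor of differentiating cells, stood at 0.53, 0.87, 1.48 and 1.08 in Q1 and at 0.39, 1.44, 1.90 and 1.99 in Q3 (difference -0.44, SE 0.44, limma adjusted p = 0.758). Both ranges overlap widely. Stra8 was lower in Q1 in every preparation, while Kit was higher in Q1 in preparation 1. Sohlh2, the partner of Sohlh1, differed by -0.71 (limma adjusted p = 0.539).

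Of 14 tested retinoic acid pathway genes, which share Stra8 and Rarg with the lists above, 1 was higher and 0 lower. Over all tested genes 0.864% were higher and 0.115% lower. The median difference of the list was -0.10. Aldh1a3, a retinaldehyde dehydrogenase, had levels of 2.27, 0.54, 2.16 and 2.04 in Q1 and 0.06, 0.68, 0.03 and 0.00 in Q3 (difference 1.56, SE 0.32, limma adjusted p = 0.00924). Preparation 2 stood apart in both groups and alone went the other way. Without preparations 1, 3 and 4 the adjusted p was 0.0904, 0.0811 and 0.119 (limma).

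**Figure D3:**
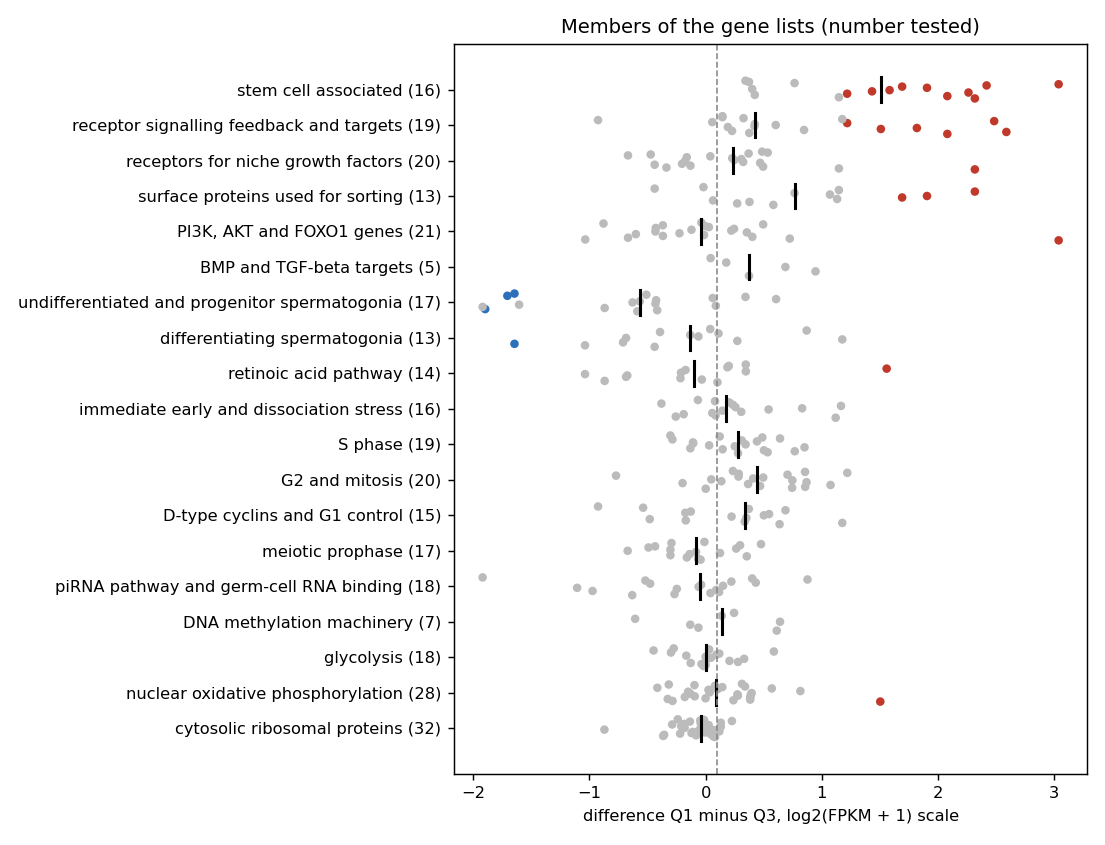
Differences Q1 minus Q3 on the log2(FPKM + 1) scale (x axis) for the tested members of 19 gene lists (y axis, number tested in brackets, some genes in more than 1 list). Red and blue points passed as higher and lower in Q1, grey points did not pass, black bars mark list medians and the dashed line the median of 0.10 over all genes. The stem cell list has its median at 1.51, the progenitor list at -0.57, and the metabolic and ribosomal lists lie near the dashed line.

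Receptors for niche growth factors other than Gfra1 did not pass in Q1 against Q3. Of 20 tested members 1 was higher (0.864% of all tested genes) and 0 lower (0.115%), with a median difference of 0.24. The chemokine receptor Cxcr4 and the co-receptor Gfra4 differed by 0.49 each (limma adjusted p = 0.361 and 0.426). Among 5 tested BMP and TGF-beta targets 0 passed in limma, with 2 at an unadjusted p under 0.05 (1278 of all 10411 tested genes) and a median of 0.37. Smad6, an inhibitor of BMP signalling, came nearest at 0.95 (SE 0.25, limma adjusted p = 0.0672), and it passed without preparation 1 (limma adjusted p = 0.029).

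Proliferation genes lay a little above the median of all genes without any passing. Of 19 S phase genes 0 passed (median 0.28), with the replication clamp Pcna at 5.86 ± 0.24 in Q1 and 5.01 ± 0.16 in Q3 (SD, n = 4; difference 0.85, limma adjusted p = 0.231). Of 20 genes of G2 and mitosis 0 passed (median 0.44, 18 differences above 0), with the ubiquitin-conjugating enzyme Ube2c at 5.36 ± 0.38 and 4.14 ± 0.39 (SD, n = 4; difference 1.22, limma adjusted p = 0.278) and Mki67 at 1.08 (0.335). The same list had a median of -0.44 for Q3 minus Q4. Immediate early and dissociation stress genes had 0 of 16 past the threshold and a median of 0.17, with Fos at 1.12 and Nr4a1 at 1.17 (limma adjusted p = 0.274 and 0.152). At an unadjusted p under 0.05 there were 2 S phase, 4 mitotic and 2 stress genes, against 1278 of all 10411 tested genes (limma). No other tool was run.

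Metabolic and housekeeping lists stayed near 0. Glycolysis had 0 of 18 genes past the threshold (median 0.00), and cytosolic ribosomal proteins 0 of 32 (median -0.04). The 28 tested nuclear genes of oxidative phosphorylation had 1 higher (0.864% of all tested genes) and a median of 0.09. That gene was Ndufa1, an X-linked complex I subunit, at 7.81, 7.51, 6.63 and 7.97 in Q1 and 5.51, 5.33, 6.40 and 6.66 in Q3 (difference 1.5, SE 0.32, limma adjusted p = 0.015). Preparation 3 showed little of it, and without preparations 1, 2 and 4 the adjusted p was 0.0509, 0.194 and 0.116, and 0.19 without the preparation block (limma). Meiotic prophase genes (0 of 17, median -0.08), the piRNA pathway (0 of 18, median -0.05) and the DNA methylation machinery (0 of 7, median 0.14) had no member past the threshold. At an unadjusted p under 0.05 these 3 lists had 1, 3 and 0 genes, glycolysis 1 and ribosomal proteins 2. Over all 10411 tested genes 1278 were under that p (limma).

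A higher mean can come from more cells that detect a gene or from more transcript per detecting cell. Of the 90 higher genes 80 were detected in a larger share of Q1 cells in all 4 preparations. Counted separately, 73 of the 90 had a higher level in Q1 among the detecting cells, pooled over preparations. The genes were chosen for a higher Q1 mean, which is made of these parts. No share over all tested genes is given, so both counts are descriptions. In Q3 14 of the 90 were detected in under 10% of cells, among them Eomes, Lhx1, Rab4a and Aldh1a3. The expression filter counted cells of every quartile, so such genes could pass it mainly through brighter cells. At the other end 7 were detected in over 90% of cells of both groups. Mt1, detected in 100% of both, differed in amount, at 11.68 and 11.17. Mrps18c was detected in 98.5% and 90.3% of cells, and its levels in detecting cells were close, at 8.44 and 8.30 (full difference 0.83). Eomes was detected in 35.3%, 57.1%, 73.7% and 63.6% of Q1 cells in the 4 preparations and in 13.3%, 0%, 11.8% and 10.5% of Q3 cells. Where it was detected its level was 4.50 in Q1 cells and 3.70 in the few Q3 cells that detected it. Spry4 was detected in 66.8% and 25.7% of cells, while its level in the cells that detected it was 4.49 and 4.52. For Tcl1 both parts differed, with detection in 93.6% and 70.2% and levels of 7.79 and 6.02 in detecting cells. Detection also depends on a library's depth and quality, whose values are given above, and their part in these shares was not tested. An FPKM of 0 says only that a gene is listed at 0.

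The groups still shared cells in the same range. At or above the Q1 median of 43.3 FPKM for Etv5 lay 21.1% of Q3 cells, and for Tcl1 it was 16.9%, for Nefm 8.45% and for Eomes 7.04%. In the other direction 81.7% of Q3 cells lay at or above the Q1 median of Ndrg4. Counting the 20 stem cell associated genes per cell, the median Q1 cell detected 11 and the median Q3 cell 6. Medians per preparation were 9, 12, 12 and 10.5 in Q1 and 6, 7, 6 and 6 in Q3, which do not overlap. At least 10 were detected in 56 of 79 Q1 cells (70.9%) and 10 of 71 Q3 cells (14.1%), and 5 or fewer in 2 and 23. The 20 genes include those chosen with earlier results known, so these counts are a description.

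**Figure D4:**
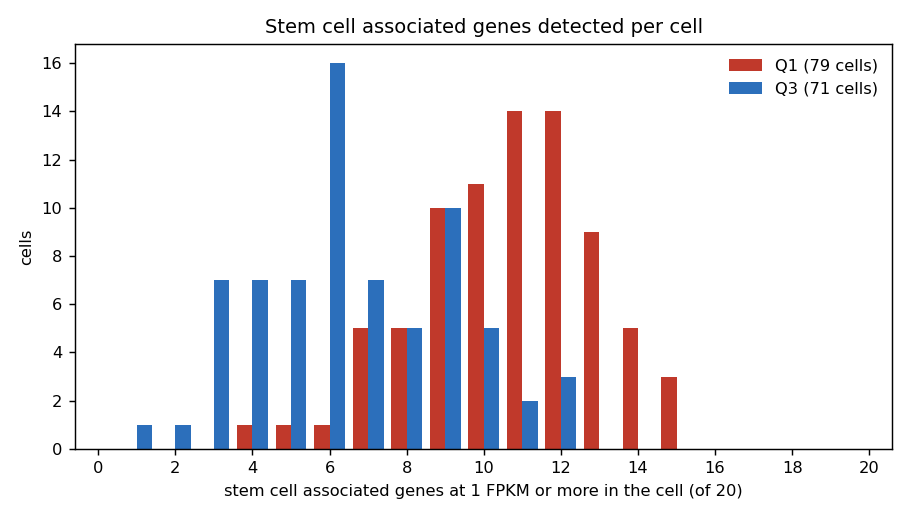
Number of cells (y axis) by how many of 20 stem cell associated genes stood at 1 FPKM or more in the cell (x axis), in red for the 79 Q1 and in blue for the 71 Q3 cells. The Q1 cells range from 4 to 15 genes with a median of 11, the Q3 cells from 1 to 12 with a median of 6.

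Cells with Gfra1 and without Kit, the pattern of stem and early progenitor cells, made up 64.7%, 81%, 63.2% and 54.5% of Q1 and 46.7%, 30.0%, 35.3% and 15.8% of Q3. The difference was 33.9 percentage points, higher in Q1 in 4 of 4 preparations (exact two-sided sign-flip permutation p = 0.125, the smallest that 4 pairs allow). Cells with Kit and without Gfra1 made up 5.24% ± 4.33 of Q1 and 14% ± 7.39 of Q3 (SD, n = 4; difference -8.76 points, lower in Q1 in 4 of 4, exact sign-flip permutation p = 0.125). Over the 4 measures tested in this way, genes per cell and depth included, the Benjamini-Hochberg values were 0.167 for these shares (exact permutation). Cells with both transcripts were as frequent in number, 13 in each group, and cells with neither numbered 10 in Q1 and 26 in Q3.

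Within each group some pairs of stem cell and feedback genes varied together from cell to cell and others hardly did. After removal of preparation means, Etv5 and Dusp6 correlated at r = 0.31 over 79 Q1 cells and r = 0.66 over 71 Q3 cells, and Gfra1 and Etv5 at 0.31 and 0.56. The values were lower for Gfra1 and Ret, at -0.02 and 0.17, for Eomes and Gfra1, at 0.07 and 0.19, and for Tcl1 and Nefm, at 0.13 and 0.20. Nid1 and Nefm had the higher value in Q1, at 0.27 against 0.05. Upp1 and Sohlh1 correlated at 0.33 in both groups, and Gfra1 and Upp1 at -0.03 and -0.26. The values of a pair share the cells and their depth, so these are descriptions and were not tested.

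The profile over all 4 quartiles describes where the difference lay. The Q2 level lay between Q1 and Q3 for 88 of the 90 higher genes, with Ddt and Atxn10 the exceptions, and for all 12 lower ones. These genes were chosen for distant Q1 and Q3 means, which by itself favours a Q2 mean between them. No share over all tested genes is given, so this count and the share that follows are descriptions. A median of 49.8% of the higher genes' difference lay between Q1 and Q2. Few genes passed in a single step. Between Q1 and Q2 2 of 10411 genes passed (0.0192%), Rab4a at 1.58 (SE 0.26, limma adjusted p = 0.0142) and Id4e at 2.00 (SE 0.33, 0.0142). Between Q2 and Q3 0 passed (0%), although 767 had an unadjusted p under 0.05 in limma, and without preparation 2 there was 1. A test of unequal steps (Q1 minus Q2 against Q2 minus Q3) had 0 genes past the threshold in limma (0%). At an unadjusted p under 0.05 it had 421 of 10411 genes, fewer than 1 in 20. No other tool was run for these counts.

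Rab4a and Etv5 show the range of shapes. Rab4a had levels of 2.21, 0.63, 0.15 and 0.29 from Q1 to Q4 (means of 4 preparations), so most of its difference lay above Q2. Etv5 stood at 5.09, 4.80, 3.01 and 1.35, with little between Q1 and Q2, but its difference between the steps of -1.49 did not pass (limma adjusted p = 0.9998).

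Below Q3 the profiles parted. Q1 against Q4 had 338 genes past the threshold (3.25%), and 75 of the 90 higher and 7 of the 12 lower genes were among them. Both comparisons use the same Q1 cells, so the overlap is no independent support. Q4 lay below Q3 for 57 of the 90 higher genes. The called genes were chosen by their Q3 level, so a Q4 mean back toward Q1 can follow from that choice. Counts and shapes below Q3 are therefore descriptions. The matching share over all tested genes is not given here, and their median of Q3 minus Q4 was 0.007. Tcl1 went on down, from 7.28 in Q1 through 6.24 and 4.24 to 2.26 in Q4, as did Dusp6, at 5.77, 4.73, 3.18 and 1.48. Nefm had most of its fall behind it at Q3, with 4.43, 2.92, 1.07 and 0.62, and Egr2 stood at 3.41, 2.53, 0.93 and 1.01. Gsta4 (6.74, 5.84, 4.14 and 5.12) and Ndufa1 (7.48, 7.00, 5.98 and 6.90) had their lowest mean in Q3, and neither passed between Q1 and Q4 (limma adjusted p = 0.0533 and 0.381). Their step from Q3 to Q4 did not pass either, with Q3 minus Q4 at -0.98 and -0.92 (limma adjusted p = 0.756 and 0.637).

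Among the lower genes, also chosen by their Q3 level, 3 of 12 had Q4 above Q3. Ndrg4 held its level, at 2.97, 3.83, 5.33 and 5.28, and Upp1 went on up, at 2.88, 3.83, 4.78 and 5.73. Enc1 (6.42, 6.69, 7.72 and 6.33) and Sgk1 (1.91, 2.41, 3.45 and 2.47) peaked in Q3 and did not differ past the threshold between Q1 and Q4 (limma adjusted p = 0.918 and 0.457). The turn between Q3 and Q4 did not pass for either, at 1.39 and 0.98 (limma adjusted p = 0.246 and 0.651). Between Q3 and Q4 1 gene passed (0.00961%), the heparan sulfate proteoglycan gene Sdc4. It stood at 10.73, 10.82 and 10.75 in Q1, Q2 and Q3 and at 9.78 in Q4 (Q3 minus Q4 0.97, SE 0.15, limma adjusted p = 0.00757), and 0 genes passed there without preparation 3 or 4.

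**Figure D5:**
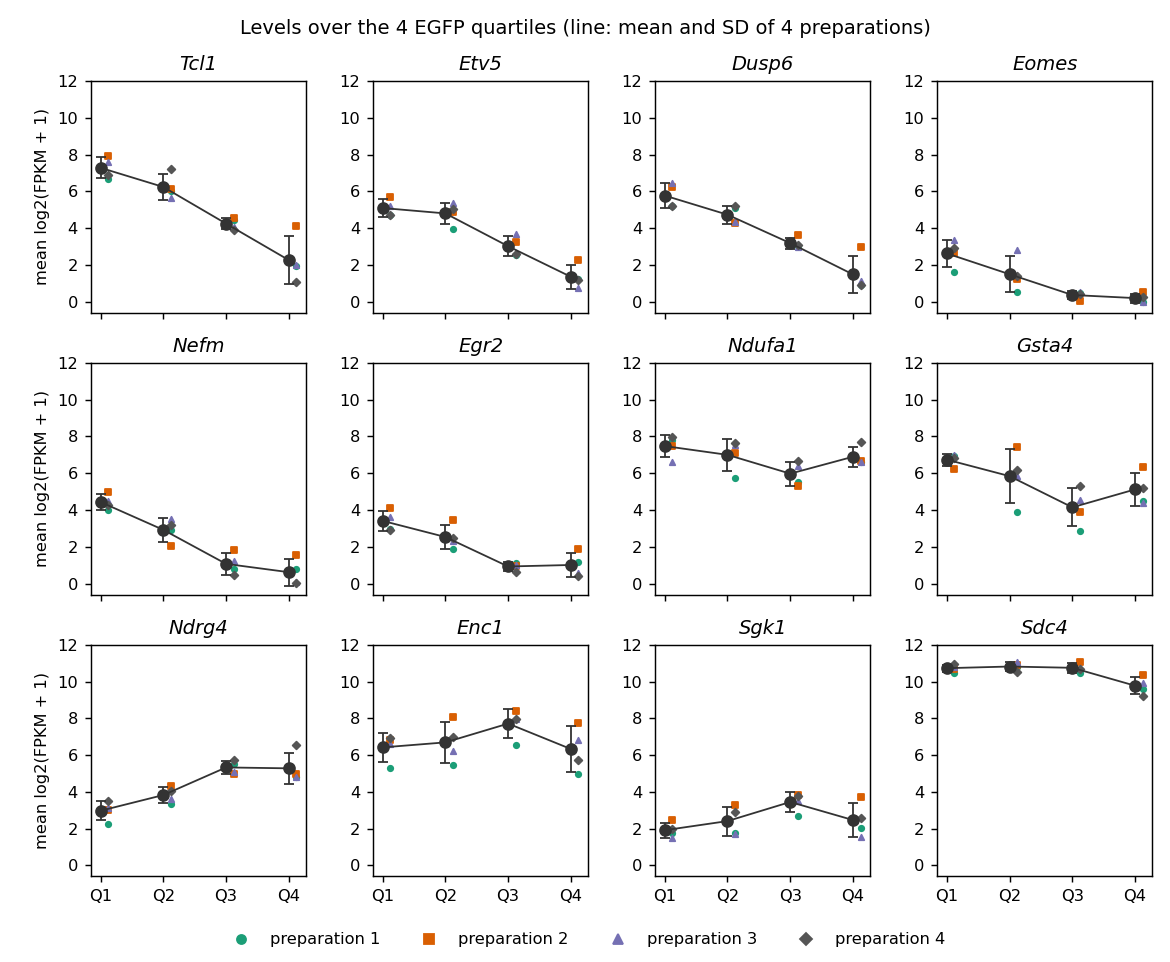
Levels (log2(FPKM + 1), y axis) of 12 genes in the 4 EGFP quartiles (x axis, Q1 brightest), with large points for the mean of 4 preparations, bars for the SD and small coloured points for each preparation. Tcl1 and Dusp6 fall through all quartiles, Gsta4 and Ndufa1 have their lowest mean and Enc1 and Sgk1 their highest in Q3, with no step from Q3 to Q4 past the threshold for these 4, and Sdc4 drops only in Q4.

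Positions are given for the leading genes (gene bounds, GENCODE vM21, GRCm38). Nefm lies on chromosome 14 from 68082590 to 68124846 (minus strand), Tcl1 on chromosome 12 from 105216750 to 105222793 (minus), Ptpn13 on chromosome 5 from 103425192 to 103598303 (plus) and Gfra1 on chromosome 19 from 58235604 to 58455909 (minus). Ndrg4 lies on chromosome 8 from 95676980 to 95715119 (plus), Sohlh1 on chromosome 2 from 25842995 to 25847248 (minus) and Upp1 on chromosome 11 from 9118103 to 9136170 (plus). All are annotated as protein-coding, and a value covers the exons of the whole gene. The kit does not mark strand, so reads of a gene and of one antisense to it cannot be told apart. Eomes, Gfra1, Mcam, Nid1, Ptpn13 and Tspan8 share exon bases with a predicted antisense gene. Nefm shares exon bases with Nefl, an annotated protein-coding gene of the opposite strand, as do Nhp2 with Rmnd5b and Stat3 with Stat5a. Whether reads of these opposite-strand genes enter the values was not tested. Gng13 overlaps Chtf18, which differed by -0.73 (limma adjusted p = 0.453). Of the called genes with a known position 6 of 88 higher ones (6.82%) and 1 of 12 lower ones (8.33%) lay on the X chromosome, against 3.77% of all tested genes.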

How the data were processed

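RNA was measured by C1 single-cell RNA-seq in 300 sorted spermatogonia of 4 quartiles. Per the submitters' processing notes FastQC, TopHat, Cufflinks and Picard were used with the builds mm10 and GRCm38, and versions are not given in the sources used here. The deposited table has FPKM values for 23354 gene names, and since its header names no unit, FPKM was read from the naming of Cufflinks. A cell's deposited FPKM values summed to between 348305 and 682985, 5602 names were at 0 in every cell, 0 columns lacked a sample and no pair of columns was identical. Depth is known only as an estimate from the steps between low values, and no count model was used.

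Means of log2(FPKM + 1), with a pseudocount of 1, were taken over cells per preparation and quartile, from 15 to 22 cells each. Genes at 1 FPKM or more in at least 30 cells were kept. The 16 means entered limma 3.58.1 (R 4.3.3) with quartile and preparation as terms and with trended, robust variance moderation. P-values were adjusted by Benjamini-Hochberg over the 10411 genes, and the threshold was 0.05. A difference on this scale understates the change of low genes. SE is from limma and SD is over 4 preparations. Shares and genes per cell were tested by exact two-sided sign-flip permutation over 16 relabelings. Scripts for tests across genes were tested on simulated data. Python 3.11.15 with pandas 2.3.3 and numpy 2.4.6 was used for tables and plots.

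Pairing rests on the number 1 to 4 in the titles, read as the 4 preparations the series describes. The labels do not tie this number to animals or to a chip. Deviations of same-numbered means from their quartile means correlated at 0.0778 to 0.356 (other preparations, median -0.05), and 14 of 16 means correlated best with their own preparation. With preparation as a term in the fit, limma p-values rest on how quartile differences varied between these 4 preparations. That spread was estimated from all 16 means and moderated over genes.

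Named genes were the panel of 24 spermatogonial genes, in each direction the 10 called genes of largest difference that had one sign in every preparation, up to 4 members of each list by smallest p, and up to 3 genes per direction for each other comparison. Predicted, coded and date-like names (3 of the called genes) were skipped. Further genes, Spry2, T, Nhp2, Dctpp1, Mrps18c and Chtf18 and exceptions to a count, were named after their values were seen. The members and lists were chosen with earlier results of these data known. The alternatives were 16 settings of the limma fit, listed with their effect in the closing section. Id4 and mitochondrially encoded genes are not analysed here, and 1 gene that the rule named is not reported here.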

Additional observations from a re-analysis of the deposited data

Results flagged for a closer look

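In 190 groups of 4 preparation means of the 92 named genes, of genes per cell and of the shares of cells with Gfra1 but not Kit and with Kit but not Gfra1, 14 had 1 mean whose gap to the rest was over the 95% critical value of Dixon's test. Chance gives about 1 in 20. The means standing apart came from preparation 1 in 5 cases, preparation 2 in 5, preparation 3 in 1 and preparation 4 in 3.

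Genes per cell averaged 4652 in Q1 of preparation 1, while the other 3 Q1 means ran from 5894 to 6108. In the same preparation and quartile the phosphatase gene Ptpn13 stood at 4.18 (others 4.82 to 4.94), the endosomal GTPase gene Rab4a at 1.30 (others 2.42 to 2.63) and the maintenance methylation factor Uhrf1 at 5.79 (others 6.60 to 6.72), all levels in log2(FPKM + 1). All 4 are low values of preparation 1. Eppin in Q3 of preparation 1 was high at 2.74 (others 1.60 to 1.67).

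In preparation 2 the row Id4e was high in Q1 at 4.84 (others 3.51 to 3.62). Aldh1a3 was low there in Q1 at 0.54 (others 2.04 to 2.27) and high in Q3 at 0.68 (others 0.00 to 0.06), so this preparation alone showed no difference in that direction. In Q3 of preparation 2 the chemokine receptor gene Cxcr4 was low at 0.11 (others 0.55 to 0.58) and the ribosomal protein gene Rpl8 was high at 10.79 (others 10.28 to 10.33).

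The co-receptor gene Gfra4 was high in Q1 of preparation 3 at 1.34 (others 0.81 to 0.89). In preparation 4 the kinase gene Akt2 and the complex I gene Ndufb8 were high in Q1 at 3.47 (others 2.51 to 2.60) and 9.92 (others 8.95 to 9.06), and Nid1 was high in Q3 at 1.96 (others 0.78 to 0.88). Nid1 remained below every Q1 mean there.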

How the results depend on the processing

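Of 31 named genes past the threshold 3 passed in each alternative that tested them (Ndrg4, Ptpn13 and Rab4a), 28 lost the call in at least 1 of up to 16 and 7 in more than 7. Of 61 that did not pass, 4 (Neurog3, Nanos3, Ccnd2 and Smad6) passed in some alternative. The 90 genes higher in Q1 became 50 with genes per cell as a covariate, 6 from the log2 of mean FPKM, 56 after median centring, 43 without the expression filter, 30 without the replicate block and 28 to 78 with 1 preparation left out. The 12 lower genes became 7, 1, 19, 3, 3 and 3 to 8 under the same settings, and 7 without trend and robust moderation. Without the block 33 of the 102 genes were still called. The 2 genes of Q1 against Q2 became 1 with the covariate, without trend and robust moderation or with the stricter filter of 75 cells, 0 from the log2 of mean FPKM, without the expression filter or without the replicate block, and 0 to 1 with 1 preparation left out. Q2 against Q3 gave 0 to 1 with 1 preparation left out. The 1 gene of Q3 against Q4 became 0 from the log2 of mean FPKM, after median centring, without the filter, without the block, without trend and robust moderation or with a pseudocount of 10, 2 with a pseudocount of 0.1 or without cells matching another type, and 0 to 2 with 1 preparation left out. The cause of these changes was not tested. Signs turned only for genes that had not passed: Bcl6b (-0.0933 from the log2 of mean FPKM, -0.004767 to 0.7184 with 1 preparation left out), Id3 (-0.1393 to 0.7856 with 1 preparation left out), Bambi (-0.0039), Slc2a1 (0.14) and Tpi1 (-0.01993) from the log2 of mean FPKM, Tpi1 (-0.11) and Sdc4 (0.28) with the covariate, and Sdc4 (-0.1049 to 0.108 with 1 preparation left out). Differences in the shares of Gfra1 and Kit cells and in genes per cell kept their sign in every alternative, but 4 pairs cannot pass the threshold. Each mean rests on 15 to 22 cells, and the depth behind a single value is unknown, so no counting interval was given.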

Other observations

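Some of the genes higher in Q1 lie outside the lists and were picked here after their values were seen. Mpzl2, an adhesion protein of the immunoglobulin family, had levels of 0.95, 2.62, 3.25 and 3.35 in Q1 and 0.11, 0.57, 0.29 and 0.15 in Q3 (difference 2.26, SE 0.34, limma adjusted p = 0.000627). It is the 1 gene beside the named ones that passed in all 16 alternatives. Bhlhe41, a helix-loop-helix repressor, was detected in 100% of Q1 and 93.7% of Q3 cells but differed in amount, with 5.09, 6.02, 5.87 and 5.55 in Q1 and 2.79, 3.93, 4.65 and 3.50 in Q3 (difference 1.92, SE 0.34, limma adjusted p = 0.00348). Without preparations 2 and 4 its adjusted p was 0.0538 and 0.0584, and 0.135 without the preparation block (limma). Both share exon bases with a predicted gene of the opposite strand.

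Other transcription factors were higher in Q1 at low levels. The LIM homeobox gene Lhx2 had levels of 1.79, 2.13, 2.22 and 2.10 in Q1 and 0.33, 0.69, 0.76 and 0.51 in Q3 (difference 1.49, SE 0.26, limma adjusted p = 0.0033; 0.06 without preparation 4). The AP-1 family gene Batf was detected in 35% of Q1 and 3.82% of Q3 cells (difference 1.81, SE 0.36, limma adjusted p = 0.00741; 0.0739 without preparation 1). Stat3, the transcription factor of cytokine signalling, differed by 1.64 (SE 0.36, limma adjusted p = 0.0214) but had 0.115, 0.162 and 0.156 without preparations 2, 3 and 4.

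The metallothionein gene Mt1, detected in 100% of cells of both groups, was the most abundant called gene. Its levels were 11.70, 11.82, 11.47 and 11.72 in Q1 and 11.17, 11.33, 11.24 and 10.92 in Q3, a small difference of 0.51 (SE 0.098, limma adjusted p = 0.00604). Without preparations 2 and 4 its adjusted p was 0.063 and 0.156, and 0.199 after median centring (limma).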
